A study of Homo sapiens with 6 samples.

Results

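The S100 family of calcium-binding proteins was examined through 10 genes, S100A8, S100A9, S100P, S100A2, S100A4, S100A6, S100A10, S100A11, S100A14 and S100A16, out of 33578 genes tested on the arrays. A gene was represented by its brightest probe set over all 6 arrays, among probe sets annotated with exactly 1 symbol. The probe sets were thus selected on mean brightness, a measured value that decided nothing for these genes, since each of the 10 had 1 such probe set. The 10 genes were chosen by family membership, but they and the division into calprotectin subunits and other S100 genes were picked with earlier results of these data known. Total RNA came from KPL4, a human cell line established from inflammatory breast cancer. The ERβ knockout group held 3 samples, in which CRISPR/Cas9 had been used to knock out estrogen receptor beta (ERβ, encoded by ESR2), and the control group held 3 samples. All 6 samples were grown in a Ham's F12 medium with fetal bovine serum, insulin and hydrocortisone, and the labels give no treatment. The labels call the 3 samples of a group biological replicates without stating that they were separate cultures. They do not tell whether the knockout line is 1 clone or several, nor how the control line was handled. P-values here rest on the spread among these 6 samples, a spread that may be partly technical.

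S100 proteins are small proteins with a pair of calcium-binding EF-hand motifs, and most work as dimers that bind other proteins when calcium rises. S100A8 and S100A9 join to form calprotectin, a complex that is abundant in neutrophils and monocytes, is also made by stressed or inflamed epithelia, sequesters zinc and manganese from microbes, and signals through TLR4 and RAGE when released. In humans most S100 genes lie together in band 1q21 within the epidermal differentiation complex, whereas S100P lies on chromosome 4. Several members, S100A4 and S100P among them, have long been studied in breast cancer for their links to cell motility and metastasis.

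Values below are log2 signals on the authors' RMA scale, so a difference of 1 is a doubling of the signal. A change was called where limma's Benjamini-Hochberg adjusted p over all 33578 genes was below 0.05. A gene was bright where its mean over the 6 arrays exceeded the median of all tested genes, 5.05. All 10 S100 genes were bright. The median signal over all probe sets lay between 4.08 and 4.12 on the 6 arrays, and precision is limited by having 3 arrays in each group. ESR2 itself was dim, at 3.90, 4.08 and 4.01 on knockout and 3.99, 3.69 and 4.16 on control arrays, and did not pass the test (log2 difference 0.05, adjusted p = 0.903), so its probe set could not check the labels. Of 13 breast epithelial markers, 13 were bright, among them EPCAM, KRT8 and KRT18.

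The calprotectin subunits and S100P were higher in knockout cells, and S100A4, S100A2, S100A14 and S100A16 were lower. In numbers, 3 of the 10 genes were called higher, where 4.81% of all genes tested were, and 4 were called lower, where 3.21% of all genes were. S100A6, S100A10 and S100A11 did not pass. Over both directions 7 of 10 were called, against 8.01% of all genes and 14.8% of bright genes. The knockout and control arrays did not overlap for 8 of the 10 genes, 4 higher and 4 lower, where 25.3% of all genes were apart, 14.9% higher and 10.3% lower. Among bright genes a larger share was apart, 3875 higher and 2462 lower of 16789. The median log2 difference of the 10 genes was -0.11, with a range of -1.19 to 3.42, and that of all genes was 0.02. Because the genes were picked with these results in view, the counts describe the 10 genes and do not show that the family stands apart.

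**Figure D1:**
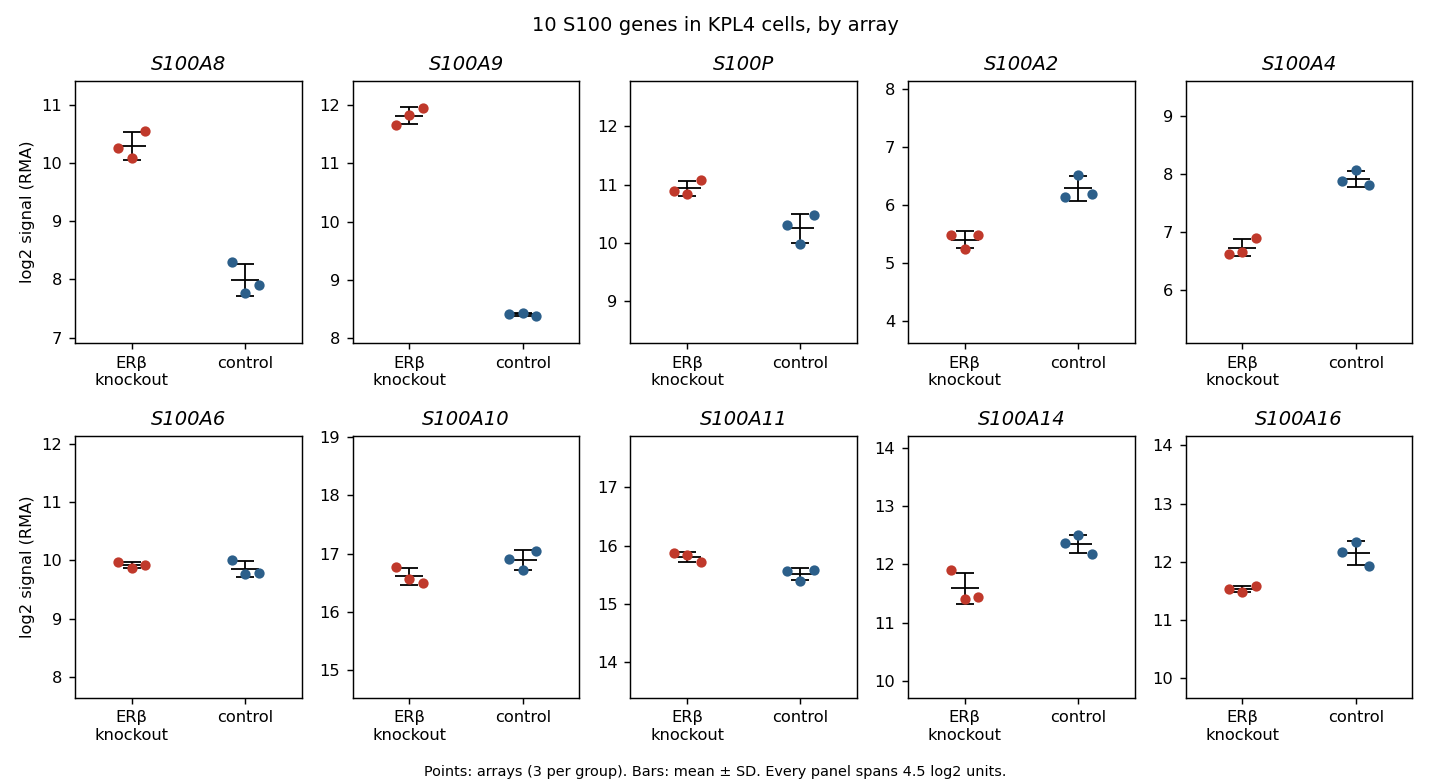
Log2 signal of the 10 S100 genes on each array, knockout left and control right in every panel, with points for arrays and bars for mean ± SD (n = 3 each). Every panel spans the same number of log2 units. The groups are apart for 8 genes and overlap for S100A6 and S100A10.

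S100A9, the larger subunit of calprotectin, changed the most. Its log2 signal was 11.66, 11.84 and 11.96 on the 3 knockout arrays, against 8.42, 8.43 and 8.37 on the 3 control arrays. All knockout arrays lay far above all control arrays, and the gap between the nearest arrays of the groups was 3.24. The log2 difference was 3.42 (SE 0.13, 95% interval 3.13 to 3.70), a 10.7-fold higher signal (adjusted p = 8.4e-08). By the size of the rise, S100A9 ranked 13 among 33578 genes.

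S100A8, its partner subunit, was 10.25, 10.08 and 10.55 on knockout arrays, against 8.29, 7.77 and 7.90 on control arrays. The groups were again apart, with knockout array 2 the lowest of its group and control array 1 the highest of its own. The log2 difference was 2.31 (SE 0.17, 95% interval 1.93 to 2.68), or 4.94-fold (adjusted p = 1.3e-05), rank 39 among all genes. The change of S100A9 exceeded that of S100A8 by 1.11 on the log2 scale, a difference that was not tested. The log2 ratio of S100A9 to S100A8 signal was 1.41, 1.75 and 1.42 on knockout arrays and 0.13, 0.65 and 0.47 on control arrays. Since these are different probe sets, the ratio shows unequal change and not which subunit was more abundant. In these bulk samples, a change in the number of cells that express a gene and a change in RNA per cell cannot be told apart.

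S100P, a secreted and cytoplasmic S100 protein that activates the membrane linker ezrin, also rose. It had 10.89, 10.85 and 11.08 on knockout arrays, against 10.30, 9.98 and 10.47 on control arrays. The lowest knockout array exceeded the highest control array by 0.38. S100P was 1.61-fold higher, a log2 difference of 0.69 (SE 0.15, adjusted p = 0.017). The call was lost without knockout array 1 (adjusted p = 0.0521) or knockout array 3 (adjusted p = 0.0729).

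The promoters of these genes, and that of S100A4, which fell, are shown because all 4 hold a TATAAA close to the start site, while the promoters of the other members do not. Only these exact letters were searched. The entries of S100A6 and S100A14 hold TATAAG near the start site, so the contrast rests on the last letter for them. They are the 250 bases before an annotated RefSeq start (GRCh38.p14), 5′ to 3′ on the gene's strand. Capitals mark TATAAA, the C/EBP-type pattern TTNNGNAA, the STAT pattern TTCNNNGAA, the AP-1 pattern TGANTCA and the estrogen response half-site GGTCA, all searched on both strands.
S100A9 (chr1:153357604-153357853, plus strand): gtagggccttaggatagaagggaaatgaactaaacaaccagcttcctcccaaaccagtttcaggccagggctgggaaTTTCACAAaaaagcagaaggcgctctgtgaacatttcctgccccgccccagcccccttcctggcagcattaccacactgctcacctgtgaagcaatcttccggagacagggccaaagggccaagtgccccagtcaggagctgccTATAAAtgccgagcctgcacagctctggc
S100A8 (chr1:153391074-153391323, minus strand): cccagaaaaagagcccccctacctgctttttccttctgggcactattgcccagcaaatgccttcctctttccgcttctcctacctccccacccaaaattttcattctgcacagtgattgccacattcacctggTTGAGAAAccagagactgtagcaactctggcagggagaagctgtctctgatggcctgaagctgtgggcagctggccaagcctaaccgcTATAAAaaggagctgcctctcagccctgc
S100P (chr4:6693628-6693877, plus strand): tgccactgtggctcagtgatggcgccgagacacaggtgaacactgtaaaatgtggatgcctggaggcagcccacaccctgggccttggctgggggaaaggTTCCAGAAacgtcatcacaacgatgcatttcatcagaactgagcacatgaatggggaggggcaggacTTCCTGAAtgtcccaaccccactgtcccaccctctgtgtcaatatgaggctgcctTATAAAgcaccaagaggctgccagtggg
S100A4 (chr1:153545807-153546056, minus strand): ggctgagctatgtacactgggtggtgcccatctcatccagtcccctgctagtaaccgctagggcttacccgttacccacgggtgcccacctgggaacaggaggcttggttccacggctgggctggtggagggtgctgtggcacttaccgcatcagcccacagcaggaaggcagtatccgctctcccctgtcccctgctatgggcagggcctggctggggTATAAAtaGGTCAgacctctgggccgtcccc

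TATAAA began 29 bases before the start of S100A9, 29 before that of S100A8, 28 before that of S100P and 31 before that of S100A4. Over the 14 promoter entries of the 10 genes, 5 held it, in 4 genes, against 10.7% of all 35116 entries in the table. A C/EBP-type match lay 173 bases before the S100A9 start and 117 before the S100A8 start, and the S100P promoter held 2, at 150 and 83 bases. Such a match was found in 7 of the 14 entries, in 6 genes, and in 33.2% of all entries, so it was common. The S100A8 entries overlap, so the same TATAAA and the same C/EBP-type match were each counted in more than 1 entry. Neither the STAT pattern nor an NF-kB pattern occurred in the 14 entries (6.57% and 1.73% of all entries). GGTCA occurred in 6 of the 14 entries, in S100A8, S100A4, S100A16 and S100A14, and in 32.6% of all entries. The full palindromic estrogen response element occurred in 0 of the 14 and in 0.0399% of all entries. GGGCGG, the Sp1 box, occurred in 5 of the 14 and in 42.6% of all entries, and TGANTCA in 1, that of S100A2, and in 6.57% of all. S100A8 has 3 annotated starts, and the probe set does not show which was used, so the entry printed is the one with TATAAA nearest to its start. These matches are descriptions of letters, not binding sites.

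S100A4, also called metastasin, binds non-muscle myosin and is linked to cell motility. It showed the largest fall of the 10 genes. Its signal was 6.63, 6.66 and 6.90 on knockout arrays, against 7.88, 8.07 and 7.81 on control arrays. The highest knockout array lay 0.90 below the lowest control array. The log2 difference was -1.19 (SE 0.14, 95% interval -1.48 to -0.89), or 2.27-fold lower (adjusted p = 0.00028).

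S100A2, which is found in the nuclei of basal epithelial cells, also fell. Knockout arrays had 5.49, 5.24 and 5.49, against 6.14, 6.52 and 6.19 on control arrays. The groups were apart by 0.65, and the knockout values were close to the brightness limit of 5.05. The log2 difference was -0.88 (SE 0.15), or 1.84-fold lower (adjusted p = 0.0034).

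S100A14 and S100A16 are neighbouring genes, both expressed in epithelia, and both fell. S100A14 had 11.90, 11.41 and 11.45 on knockout arrays, against 12.36, 12.51 and 12.19 on control arrays. Knockout array 1 was closer to the controls than the other knockout arrays were. S100A14 was 1.70-fold lower, with a log2 difference of -0.77 (SE 0.16, adjusted p = 0.013). Its call was lost without knockout array 2 (adjusted p = 0.0684) or knockout array 3 (adjusted p = 0.0594).

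S100A16 had 11.53, 11.49 and 11.59 on knockout arrays, against 12.17, 12.34 and 11.93 on control arrays. The knockout arrays were close together and all below the lowest control array. S100A16 was 1.53-fold lower, with a log2 difference of -0.61 (SE 0.14, adjusted p = 0.019). Of the 7 calls this one was lost most often, without control array 1 (adjusted p = 0.0636), control array 2 (0.0583), knockout array 1 (0.0665) or knockout array 2 (0.0821).

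S100A6, or calcyclin, S100A10, the annexin A2 partner known as p11, and S100A11, or calgizzarin, did not pass. S100A6 had 9.97, 9.86 and 9.92 on knockout arrays and 10.00, 9.77 and 9.78 on control arrays, with the groups overlapping. Its log2 difference was 0.06, with a 95% interval of -0.21 to 0.34, so a change of more than 1.27-fold in either direction lay outside the interval. S100A10 was 16.78, 16.57 and 16.49 on knockout arrays and 16.91, 16.72 and 17.05 on control arrays, a difference of -0.28 (95% interval -0.59 to 0.03, adjusted p = 0.305).

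S100A11 was 15.87, 15.83 and 15.72 on knockout arrays, against 15.56, 15.40 and 15.58 on control arrays. The arrays did not overlap, yet the difference of 0.29 (95% interval 0.02 to 0.57) missed the threshold (adjusted p = 0.213). With an intensity trend and robust moderation it passed (adjusted p = 0.0254). The S100A10 signal lay above 16 and that of S100A11 just below it, where the scale of the deposited values may be stretched. Processed pseudogenes of S100A11 have their own probe sets on the array, and near-identical copies may share signal.

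**Figure D2:**
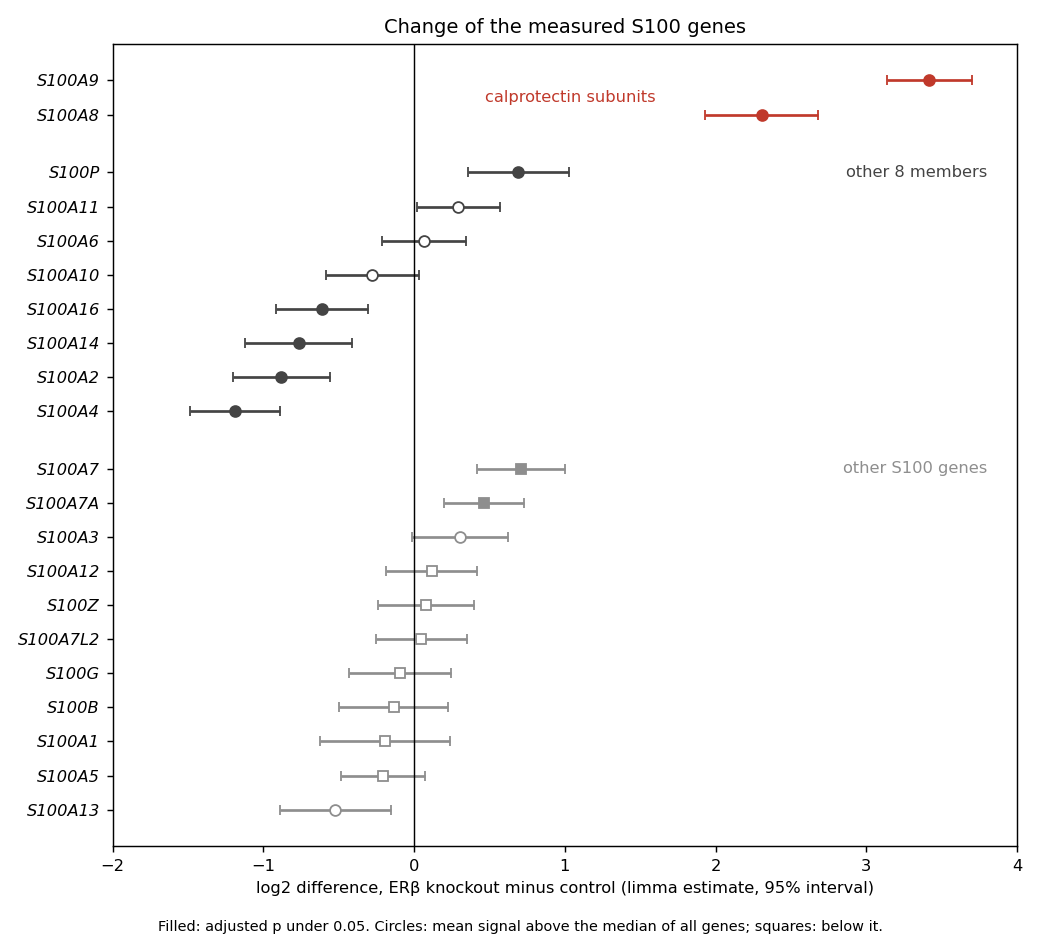
Log2 difference, knockout minus control, of the 21 measured S100 genes with 95% intervals from limma, grouped as calprotectin subunits, the other 8 members and the remaining 11 S100 genes. Filled symbols passed the test, circles are bright and squares dim. S100A9 and S100A8 lie at 3.42 and 2.31, and no other S100 gene exceeds 0.71.

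Set side by side, the calprotectin subunits had larger changes than the others. The mean log2 difference of S100A8 and S100A9 was 2.86, and the median of the other 8 was -0.45, a contrast of 3.31. On the 3 knockout arrays, S100A8 and S100A9 stood at least 2.10 above their control means. None of the other 8 was more than 0.83 above its control mean on a knockout array, and the lowest was at -1.29. On each knockout array taken alone, the mean of the calprotectin subunits was 2.76, 2.76 and 3.06 above the control mean, and the median of the other 8 was -0.28, -0.49 and -0.48. On the control arrays the same quantities were 0.16, -0.10 and -0.06 for calprotectin, and 0.02, 0.03 and -0.08 for the others. The contrast was drawn with these values known and is given without a test.

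**Figure D3:**
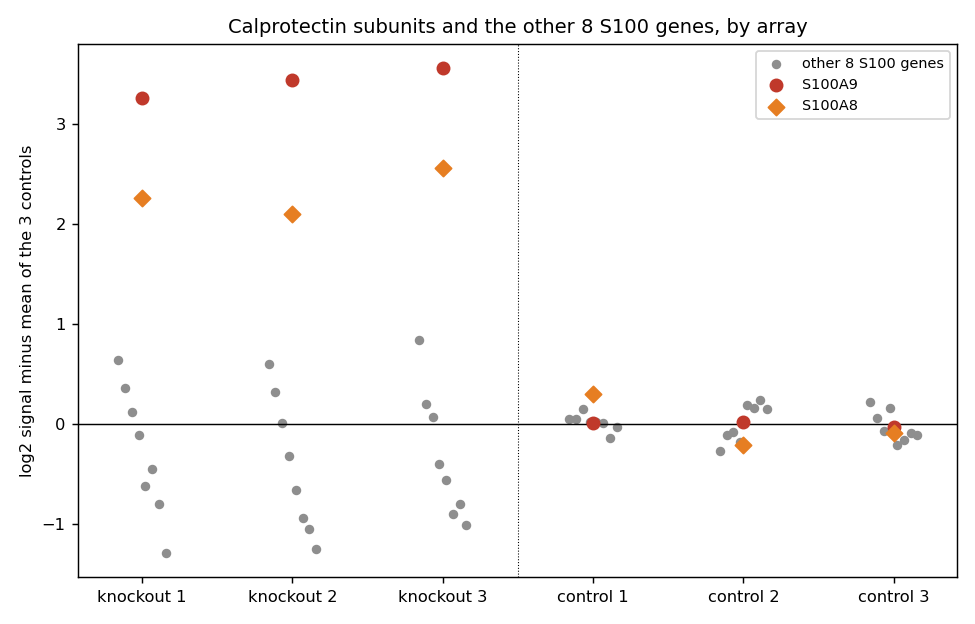
Log2 signal minus the mean of the 3 control arrays, for S100A9 (circles), S100A8 (diamonds) and each of the other 8 S100 genes (grey), on every array. On all 3 knockout arrays both calprotectin subunits are above 2.0, and the other 8 lie between -1.29 and 0.83.

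Of the remaining S100 genes, 11 were measured, and 9 of these were dim. S100A7, or psoriasin, which is abundant in inflamed skin, and its copy S100A7A were called higher, and none of the 11 was called lower. Over all genes 4.81% were called higher and 3.21% lower, and 1.2% of dim genes were called in either direction. The lack of a called fall is thus near the background and no result about these genes. S100A7 was 4.33, 4.28 and 4.44 on knockout arrays, against 3.53, 3.82 and 3.57 on control arrays. The log2 difference was 0.71 (adjusted p = 0.0066), without overlap, but every value was below the brightness limit, so no fold is given. S100A7A had 4.76, 4.60 and 4.70 on knockout arrays and 4.20, 4.23 and 4.25 on control arrays (log2 difference 0.46, adjusted p = 0.0385). Leaving out any single array ended that call (adjusted p = 0.0734 to 0.13). The genes are near-identical copies, so which of them was measured is uncertain. S100A13, which was bright, differed by -0.52 without overlap and did not pass (adjusted p = 0.0903). S100A12, which lies between S100A9 and S100A8 and codes for calgranulin C of myeloid cells, was dim and differed by 0.12 (adjusted p = 0.73).

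Along chromosome 1, the called rises and the called falls of S100 genes lay in neighbouring runs. RefSeq (GRCh38.p14) places 63 protein-coding genes from S100A10 to S100A1, of which 61 were measured, 16 of them S100 genes. In the run S100A9, S100A12, S100A8, S100A7A and S100A7, the log2 difference was positive for each, and all but S100A12 were called higher. S100A7A and S100A7, as near-identical copies, may not be separate rises. Over all 33578 genes, 18130 had a positive difference and 4.81% were called higher. After S100A6, which differed by 0.06, come S100A5, S100A4, S100A3, S100A2, S100A16, S100A14, S100A13 and S100A1. Of these 8, 7 had a negative difference, S100A3 being the exception at 0.30 (adjusted p = 0.271), and 4 were called lower. S100A5 and S100A1 were dim and not called. Over all genes, 15448 had a negative difference and 3.21% were called lower. The runs were seen in these values and were not tested. S100A10 and S100A11, the outermost members at the other end, were not called.

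Of 45 measured genes of the interval that are not S100 genes, such as the late cornified envelope (LCE) and small proline-rich (SPRR) genes of the skin barrier, 0 were called, and 5 had an unadjusted p below 0.05 in limma. Of the 45, 36 were dim, and the largest difference was that of LCE4A, a bright gene, at 0.56 (adjusted p = 0.102). Among all dim genes tested 1.2% were called, so the lack of a call among these 36 lies near the background and is no result about them. Across the whole interval 8 of 61 genes (13.1%) were called, against 8.01% of all genes and 14.8% of bright genes, and these 8 are S100 genes. The 7 S100 fused-type genes, such as FLG, the gene of filaggrin, join an S100 domain to a long repeat. All 7 were dim, 0 were called and 1 had an unadjusted p below 0.05, and the largest difference was that of TCHHL1 at 0.29 (adjusted p = 0.235). Of 19 measured genes in the 10 positions on either side, 1 was called, CRTC2, a coactivator of CREB, which was higher by 0.93 (adjusted p = 0.0062). The median log2 difference was 0.06 over the 45 genes and 0.02 over the 19 flanking genes. The S100A7A call within this run is the one that was lost without any 1 array. Around S100P on chromosome 4, 9 of 10 neighbouring genes were measured and 1 was called, WFS1, an endoplasmic reticulum protein, higher by 1.14 (adjusted p = 0.000243).

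**Figure D4:**
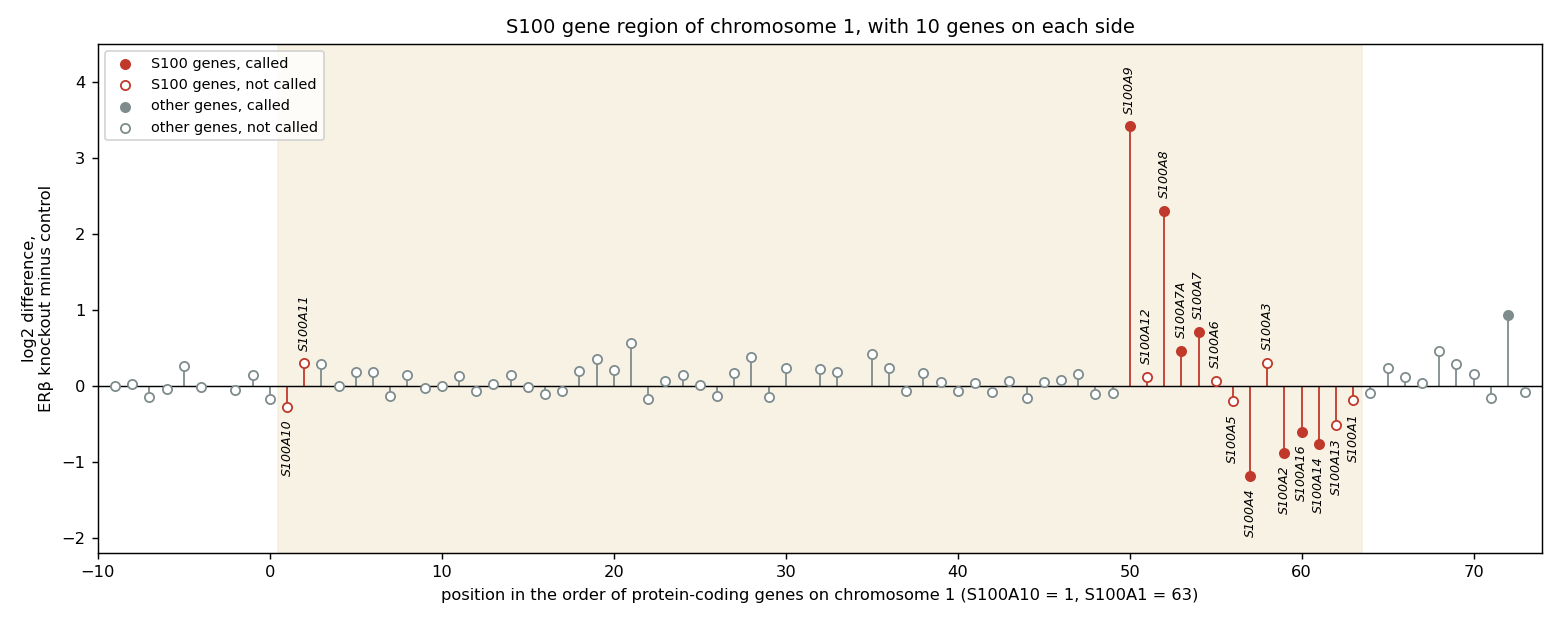
Log2 difference, knockout minus control, of the measured protein-coding genes in RefSeq order from S100A10 to S100A1 (shaded), with the measured genes of the 10 positions on each side. Red marks S100 genes, grey other genes, and filled symbols passed the test (adjusted p below 0.05). The called rises between S100A9 and S100A7 and the called falls between S100A4 and S100A14 lie in neighbouring stretches, with S100A6 and S100A5 between them. S100A12 and S100A3, inside these stretches, were not called, and S100A3 differed by 0.30. No grey symbol in the shaded part is filled.

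Genes that act with S100 proteins were then described from lists of receptors, partners and regulators. These lists, too, were drawn up with earlier results known, and their counts stand beside 4.81% higher and 3.21% lower over all genes. Of 9 measured receptors and adaptors of S100 proteins, 1 was called higher and none lower, and the median difference was -0.14. The called gene was CD36, a scavenger and fatty acid receptor that has been described to take up calprotectin-bound arachidonic acid. CD36 had 13.66, 13.68 and 13.64 on knockout arrays, against 6.83, 7.11 and 6.78 on control arrays (log2 difference 6.75, adjusted p = 9.3e-10). TLR4 and AGER, the gene of RAGE, were dim in both groups. TLR4 averaged 3.65 in knockout and 3.87 in control cells, and AGER 3.85 in knockout and 3.99 in control cells. BSG, or basigin, which binds S100A9, was bright and differed by 0.03 (adjusted p = 0.934).

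Annexin A1 showed the largest fall among intracellular partners. Of 17 measured, 4 were called lower and 1 higher, with a median of -0.08. ANXA1, annexin A1, the partner of S100A11, had 15.53, 15.41 and 15.32 on knockout arrays, against 17.25, 17.27 and 17.35 on control arrays. All knockout arrays lay below all control arrays, with a log2 difference of -1.87 on the deposited scale (adjusted p = 6.5e-06). ANXA2, the partner of S100A10, differed by -0.10 (adjusted p = 0.73). The ANXA1 signal in control cells and that of ANXA2 in both groups exceeded 16, where the scale may be stretched, so no fold is given. The same limit holds for BSG, EZR and ESRP1, whose group means also exceeded 16. SUGT1, a co-chaperone that binds S100A6, was 2.24-fold lower (adjusted p = 0.0017). HLTF, a chromatin remodeller reported in mouse brain to bind the complex of S100A10 and annexin A2, was 1.47-fold lower (adjusted p = 0.0259), a call lost without control array 2 or 3 or knockout array 1 or 2 (adjusted p up to 0.104). IQGAP1, a scaffold that binds S100P, was 1.35-fold higher at the edge of the threshold (adjusted p = 0.0499), and the call was lost without any 1 array (adjusted p = 0.0926 to 0.157). EZR, the gene for ezrin, differed by 0.07 (adjusted p = 0.818). Without 1 array the list had 2 to 3 genes called lower and 0 higher.

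Among regulators and inducers of calprotectin, the receptor genes IL1R1 and OSMR rose, and the transcription factor genes JUN and NFKB1 fell. Of 24 measured, 2 were called higher and 2 lower, with a median of 0.18. IL1R1, the interleukin-1 receptor, had 8.79, 8.95 and 8.98 on knockout arrays, against 7.03, 7.18 and 7.40 on control arrays, or 3.25-fold higher (adjusted p = 2.5e-05). OSMR, the receptor of oncostatin M, had 9.79, 9.93 and 9.78 on knockout arrays, against 8.29, 8.56 and 8.75 on control arrays, or 2.46-fold higher (adjusted p = 0.000236). Both receptor calls held without any 1 array. JUN was 1.63-fold lower (adjusted p = 0.0304) and NFKB1 1.52-fold lower (adjusted p = 0.0417). JUN lost its call without control array 1 or 3 or knockout array 1 or 3 (adjusted p up to 0.114), and NFKB1 without control array 1 or 2 or knockout array 1 or 2 (up to 0.158). CEBPB, a factor that binds the calprotectin promoters in myeloid cells, differed by 0.36 without overlap of the groups and did not pass (adjusted p = 0.135), nor did STAT3 (0.28, adjusted p = 0.327). CEBPA, which was dim, went the other way, by -0.39 without overlap (adjusted p = 0.105). CEBPD and CEBPE, also dim, differed by 0.24 and 0.30 and did not pass. RELA differed by 0.38, opposite to NFKB1, and did not pass (adjusted p = 0.0847). The ligand genes IL1A, IL1B, IL6 and TNF were dim in both groups, and none passed.

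Several mucosal and epidermal defence genes were higher in knockout cells. Of 21 measured, 7 were called higher and 0 lower, with a median of 0.16, and 14 did not pass. Over all genes 4.81% were called higher and 3.21% lower, and this list, too, was drawn up with earlier results known. The 7 called genes were all among the 10 bright ones of the list, and 1494 of 16789 bright genes were called higher. BPIFB1, a secreted airway protein, was 23.9-fold higher (adjusted p = 4.55e-09), PIGR, the polymeric immunoglobulin receptor, was higher by 2.58 on the log2 scale (adjusted p = 8.7e-07), and PI3, the elastase inhibitor elafin, by 2.46 (adjusted p = 8.9e-06). Leaving out 1 array at a time gave 6 to 7 genes of the list called higher. SLPI, 1 of the 7, lost its call whichever array was left out (adjusted p = 0.054 to 0.107).

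Calprotectin is a defining product of neutrophils and monocytes, so markers of those cells are given beside it. Of 14 myeloid and granulocyte markers, 0 were called in limma and 2 had an unadjusted p below 0.05. Their summed log2 signal was 65.5 to 66.4 on knockout and 65.2 to 65.9 on control arrays, and no marker was listed at 0. Of the markers, 10 of the 14 were dim, including CD14, LYZ, CSF3R, FCGR3B, MPO and ELANE. Over all genes 8.01% were called, and 1.2% of dim genes, so the lack of a call lies near the background and is no result about these markers. The largest difference was that of FCGR3B, 0.48 with overlapping groups (adjusted p = 0.223). PTPRC, ITGAM, SPI1 and TYROBP were above the brightness limit, and none of them passed. SPI1, the gene of the myeloid factor PU.1, was 5.43, 5.34 and 5.19 on knockout arrays, against 4.94, 4.95 and 5.10 on control arrays. Its groups did not overlap, with a log2 difference of 0.32 (unadjusted p = 0.0289, adjusted p = 0.18). The groups overlapped for PTPRC, ITGAM and TYROBP, with log2 differences of 0.15 for PTPRC, 0.11 for ITGAM and -0.17 for TYROBP. The part of these markers in the calprotectin result was not tested.

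Of 11 keratinocyte differentiation markers, 0 were called and 2 had an unadjusted p below 0.05 in limma, and 8 were dim. With 8.01% of all genes and 1.2% of dim genes called, this too lies near the background and is no result about them. Their summed log2 signal was 50.3 to 52.1 on knockout and 50.7 to 51.4 on control arrays. KRT1 differed the most, by -0.42 (adjusted p = 0.146), and CNFN by nearly as much the other way, 0.41 (adjusted p = 0.0949). Both were bright and without overlap of the groups. The list median was 0.04, with 6 positive and 5 negative differences, and 1 marker of the list was called lower without control array 2. Breast epithelial markers had 3 called higher and 1 lower of 13, all bright, where 14.8% of bright genes were called in either direction. CLDN3, a claudin, was 2.59-fold higher (adjusted p = 6.0e-05), KRT19, a luminal keratin, 2.37-fold (adjusted p = 0.000103), ESRP1, an epithelial splicing factor, was higher by 0.74 on the log2 scale (adjusted p = 0.00293), and KRT80 was 1.52-fold lower (adjusted p = 0.0421). The KRT80 call was lost without any control array or without knockout array 2 or 3 (adjusted p up to 0.161). The summed log2 signal of the 13 markers was 171.2 to 173.0 on knockout and 168.4 to 169.2 on control arrays. Their median log2 difference was only 0.04, with 9 positive and 4 negative, so the sum does not describe a typical marker. KRT8 and KRT18 differed by -0.24 and -0.27 without overlap and did not pass (adjusted p = 0.314 and 0.267). The part of these markers in the S100 results was not tested.

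**Figure D5:**
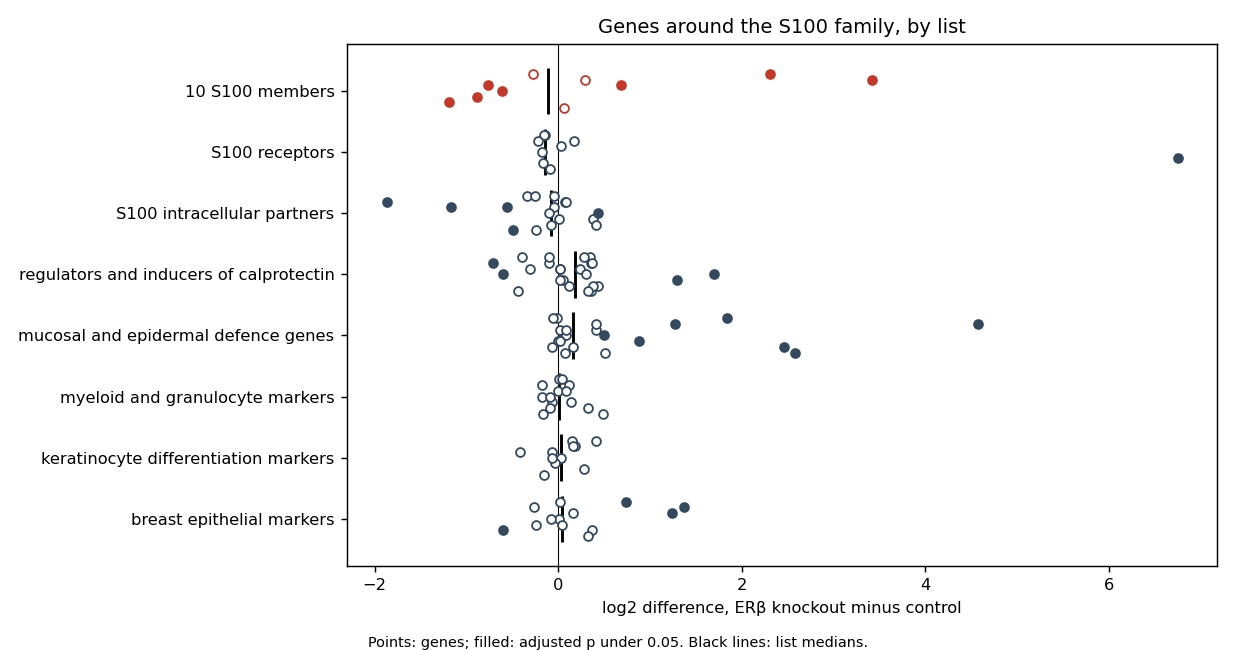
Log2 difference, knockout minus control, of the 10 S100 genes and of the genes in 7 related lists, with a point for each gene, filled where it passed the test, and a black line at the list median. Defence genes reach 4.58 (BPIFB1) with no called fall, receptors hold 1 called gene (CD36 at 6.75), and no myeloid or keratinocyte marker is filled.

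The genes whose pattern over the 6 arrays was most like that of calprotectin were sought among 11990 named genes that were bright in at least 1 group. Likeness was the root-mean-square difference of log2 signals over the 6 arrays, each gene set against its own control mean. For S100A8 the nearest were PI3 at 0.15, MAL, a membrane raft protein, at 0.16, and SLC7A2, an arginine transporter, at 0.17. PI3 had 9.64, 9.40 and 9.68 on knockout arrays, against 7.43, 6.78 and 7.12 on control arrays. Like S100A8 it was lowest on knockout array 2 and control array 2 of each group, which is part of what it was chosen on. For S100A9 the nearest were CATSPERB, a sperm calcium channel subunit, at 0.17, TFPI2, a serine protease inhibitor, at 0.18, and ELMO1, an adaptor of RAC1 activation, at 0.21. S100A8 and S100A9 differed from each other by 0.81 on this measure, which also counts the unequal size of their changes. The nearest genes were picked as the smallest differences among 11990, so their lower values are no result about the subunits.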

How the data were processed

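Total RNA of 3 ERβ knockout and 3 control samples of KPL4 cells was measured on Affymetrix arrays, 1 per sample. The authors deposited log2 signals. The submitters' processing notes name RMA and the Transcriptome Analysis Console; versions and genome build are not given in the sources used here. Of 134748 probe sets, 35528 had 1 symbol, 1119 several and 98101 none listed. The brightest probe set per gene left 33578 genes, fitted with limma 3.58.1 in R 4.3.3 (lmFit, eBayes, two-sided, no covariate, no brightness filter). The fit was tested on simulated data. Of the values, 0.567% exceed 16, the log2 top of a 16-bit scale, so the scale may be stretched there.

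The members and all gene lists were chosen with earlier results of these data known. Of each list, at most 3 called genes per direction with the largest change were named, and 1 further where none was called. Other listed genes were named for a known role or position, with their values seen. Alternatives were another normalization, equal array medians, trended robust moderation, a brightness filter, other uses of probe sets, a replicate block and leaving out each array. Same-numbered arrays of the groups did not deviate together (correlations -0.02, -0.01 and -0.03), so the main fit did not pair them. With 3 arrays per group this check cannot exclude that same-numbered samples were handled together.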

Additional observations from a re-analysis of the deposited data

How the results depend on the processing

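S100A8, S100A9, S100A2 and S100A4 kept their direction and their call under all 13 alternatives, and no result reversed. Trended moderation, the brightness filter, other uses of probe sets and the replicate block leave the log2 differences of the 10 genes unchanged. Those alternatives could thus alter the calls but not the direction. Leaving out 1 array at a time gave 2 to 3 S100 members called higher and 2 to 4 called lower, with 2 lower without knockout array 2. Over all genes it gave 1008 to 1378 called higher, with 1044 without knockout array 1 and 1008 without knockout array 2, and 660 to 925 called lower, with 660 without knockout array 2. The contrast of calprotectin with the other 8 genes stayed between 3.19 and 3.39 in these fits. With the replicate block the adjusted p was 0.0155 for S100P, 0.0165 for S100A14 and 0.0378 for S100A16, and the block changed no call among the 10 genes. IQGAP1 was not called after quantile normalization was repeated. For dim genes, among them ESR2, most S100 genes outside the 10 and the myeloid markers, signal near background limits what could be detected. The causes of lost calls were not tested, and each fit without an array has fewer samples.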
